A study of Mus musculus with 18 samples.

Results

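Hao1, Agxt, Prodh2, Hoga1, Grhpr and Aldh4a1 are 6 genes of glyoxylate and hydroxyproline metabolism, and their RNA levels were examined in mouse liver across 6 groups of 3 biological replicates. They were chosen by symbol from a deposited table of read counts, and all 6 were found among its 52636 gene IDs. All 6 also passed the filter on low counts that left 13958 genes for testing. The study sequenced liver RNA from 18 mice after inducible deletion of Hnf4a, whose product is a nuclear receptor of liver cells, alone or together with Arntl (Bmal1), whose product drives transcription in the circadian clock. Livers were taken at ZT8, where ZT counts hours of the light cycle. All mice had received tamoxifen (10 mg/mL in corn oil, by injection on 5 days) at 8 weeks of age.

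The H-WT and H-KO groups carried the alleles Hnf4atm1.1Gonz and Albtm1(cre/ERT2)Mtz in their strain label and were 10 weeks old. The BH-WT and BH-KO groups carried Arntltm1Weit besides these alleles and were also 10 weeks old. The BH-HF-WT and BH-HF-KO groups had the BH strain label, were 45 weeks old and had been fed a high-fat diet for 35 weeks. The Cre recombinase sits at the albumin locus and is activated by tamoxifen, so recombination is directed to cells that express albumin, and other liver cells keep both genes. WT and KO groups of a setting share 1 strain label and 1 treatment, and the sources used here do not say what made a mouse WT. Age, diet and time since tamoxifen differ together between the BH-HF and BH groups and cannot be told apart.

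Glyoxylate is a small aldehyde acid that liver cells make from glycolate and from hydroxyproline, an amino acid released when collagen is broken down. It is either turned into glycine, reduced to glycolate, or oxidised to oxalate, which the kidney excretes and which forms stones when in excess. Inherited loss of AGXT, GRHPR or HOGA1 causes primary hyperoxaluria in humans, and HAO1 is the target of drugs that lower oxalate. The genes are described in the order of the pathway. Prodh2 (hydroxyproline dehydrogenase), Aldh4a1 (a dehydrogenase shared with proline breakdown) and Hoga1 (the mitochondrial aldolase that releases glyoxylate) act on hydroxyproline. Hao1 (glycolate oxidase of the peroxisome) makes glyoxylate from glycolate, and Agxt (alanine-glyoxylate aminotransferase) and Grhpr (glyoxylate and hydroxypyruvate reductase) remove it.

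Levels are given in CPM, the usual count scaled to a library's total, here after scaling by TMM (a factor that corrects for a few abundant RNAs). Total counts per library ranged from 6846471 to 9816124, and each of the 6 genes had 59 to 3444 counts in every library. Fold changes are on the log2 scale with their standard error (SE). The test was the quasi-likelihood test of edgeR, with p-values adjusted by Benjamini and Hochberg's method over 13958 genes, and the threshold for passing was an adjusted p of 0.05. The spread between replicates was estimated over all 18 libraries. In bulk liver RNA, fewer cells of a type and less RNA per cell cannot be told apart.

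Several libraries stood apart from others that share their label in whole or in part. In BH-KO replicate 1, 20.2% of the tested genes were over 2-fold away from the rest of its group, against 1.93 to 9.71% in the other 17 libraries. H-WT replicate 3 had 1084 CPM of Xist, which coats the silenced X of females, against at most 3.9 CPM elsewhere, and 5.74 CPM of the Y-linked Ddx3y, against at least 115 CPM elsewhere. Gene-level counts check the deletion only weakly, since it removes part of each gene. Hnf4a did not pass in any KO comparison (log2 fold change -0.35 ± 0.21 in H-KO, -0.40 ± 0.21 in BH-KO and 0.14 ± 0.21 in BH-HF-KO, with edgeR adjusted p of 0.208, 0.164 and 1). Arntl was at 17.4 to 24.1 CPM in the 3 BH-KO libraries, against at most 2.61 CPM in the other 15. This rise (5.00 ± 0.43, edgeR adjusted p = 2.13e-06) is opposite to a loss of the RNA, and whether it marks recombination was not tested. The 3 libraries labelled BH-HF-KO carry the same strain label and did not have it (0.13 ± 0.42, edgeR adjusted p = 1). Their albumin RNA, at 2.68 to 3.72% of counts, was below that of every BH-HF-WT library (6.18 to 7.71%).

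The 6 genes are protein coding and lie on 5 chromosomes of mm10, with positions from GENCODE M21. Prodh2 (ENSMUSG00000036892) spans chromosome 7, 30493622 to 30513402, plus strand, with 11 merged exons. Aldh4a1 (ENSMUSG00000028737) spans chromosome 4, 139622866 to 139649690, plus strand, with 13. Hoga1 (ENSMUSG00000025176) spans chromosome 19, 42045610 to 42070953, plus strand, with 8. Hao1 (ENSMUSG00000027261) spans chromosome 2, 134497361 to 134554368, minus strand, with 9, and Agxt (ENSMUSG00000026272) spans chromosome 1, 93135240 to 93145421, plus strand, with 12. Grhpr (ENSMUSG00000035637) lies on the chromosome of Aldh4a1, at 44981395 to 44990734, plus strand, with 10. Aldh4a1 shares 1595 exon bases with Gm21969 on its own strand, which had 27 counts over all libraries, and Hoga1 shares 43 with 4933411K16Rik, which had 757. The sources used here do not say how reads in these shared bases were counted.

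The sequence before the start of 4 of the genes is shown because these genes had different patterns in the KO groups: Hao1 and Prodh2 fell most in H-KO, Agxt fell in H-KO but did not pass in BH-KO, and Grhpr rose in BH-KO. The sequences are from RefSeq promoters of GRCm38.p6 (mm10), leave out bases inside any annotated transcript of the gene and run 5′ to 3′ on the strand of the gene. Capitals mark matches to the motifs searched.
Hao1 promoter, chr2:134554369-134554602, minus strand: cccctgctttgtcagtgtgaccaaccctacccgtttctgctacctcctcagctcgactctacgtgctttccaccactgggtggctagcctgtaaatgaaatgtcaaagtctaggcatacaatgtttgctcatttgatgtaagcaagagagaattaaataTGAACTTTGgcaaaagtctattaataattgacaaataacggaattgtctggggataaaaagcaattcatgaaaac
Prodh2 promoter, chr7:30493408-30493585, plus strand: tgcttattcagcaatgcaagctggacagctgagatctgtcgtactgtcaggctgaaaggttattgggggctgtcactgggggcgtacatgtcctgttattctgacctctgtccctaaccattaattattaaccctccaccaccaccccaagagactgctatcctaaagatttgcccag
Agxt promoter, chr1:93134990-93135239, plus strand: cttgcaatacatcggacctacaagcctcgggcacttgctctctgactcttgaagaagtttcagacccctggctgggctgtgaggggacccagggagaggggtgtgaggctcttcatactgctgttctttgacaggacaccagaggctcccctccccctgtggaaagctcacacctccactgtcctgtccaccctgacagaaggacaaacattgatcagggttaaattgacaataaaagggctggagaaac
Grhpr promoter, chr4:44981144-44981393, plus strand: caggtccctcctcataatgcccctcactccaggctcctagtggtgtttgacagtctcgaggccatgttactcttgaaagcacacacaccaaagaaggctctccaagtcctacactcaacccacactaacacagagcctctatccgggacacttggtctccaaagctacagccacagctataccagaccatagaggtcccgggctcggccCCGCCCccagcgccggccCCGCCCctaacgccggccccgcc
The motifs were searched on both strands in the 250 bases before each RefSeq start, from which positions are counted. They were CAAAGTNCA (of the HNF4 type), CAAAGGTCA (a related form that cannot match at the same bases), CACGTG (the E-box of clock factors) and GGGCGG (the GC box). The letters of the first were broadened, and the GC box was chosen, after these sequences had been viewed.

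CAAAGTNCA occurred in 1.19% of 32851 mouse promoters and in 1 of the 6 genes, Hao1, as TGAACTTTG from base -91 to -83 on the strand opposite to the gene. CAAAGGTCA (0.426% of promoters) and CACGTG (6.02%) occurred in none of the 6. GGGCGG occurred in 32.7% of promoters and in 2 of the 6 genes, Grhpr and Hoga1. In Grhpr it lay at bases -41 to -36 and -23 to -18 on the opposite strand. GC content was 41.6% in the Hao1 window, 51.6% in Prodh2, 53.6% in Agxt and 60.4% in Grhpr, which also had 11 CpG dinucleotides against 4 in Hao1 and 2 each in Prodh2 and Agxt. A match says only that these letters are present.

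In livers labelled WT all 6 genes were well expressed. Per kilobase of exon, Agxt had the highest mean in H-WT, at 186 ± 85.8 CPM per kb (SD, n = 3). Hao1 followed at 113 ± 22.1, Prodh2 at 89.5 ± 9.83, Hoga1 at 73.2 ± 4.54, Grhpr at 64.9 ± 2.43 and Aldh4a1 at 58.1 ± 17.2 CPM per kb. The wide SD of Agxt came with H-WT replicate 3, whose Agxt was the highest of all 18 libraries. Across all 18 libraries Hao1 varied 51-fold and Prodh2 47.3-fold, Hoga1 8.33-fold, Agxt 4.83-fold, Grhpr 3.91-fold and Aldh4a1 2.41-fold (highest over lowest CPM).

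**Figure D1:**
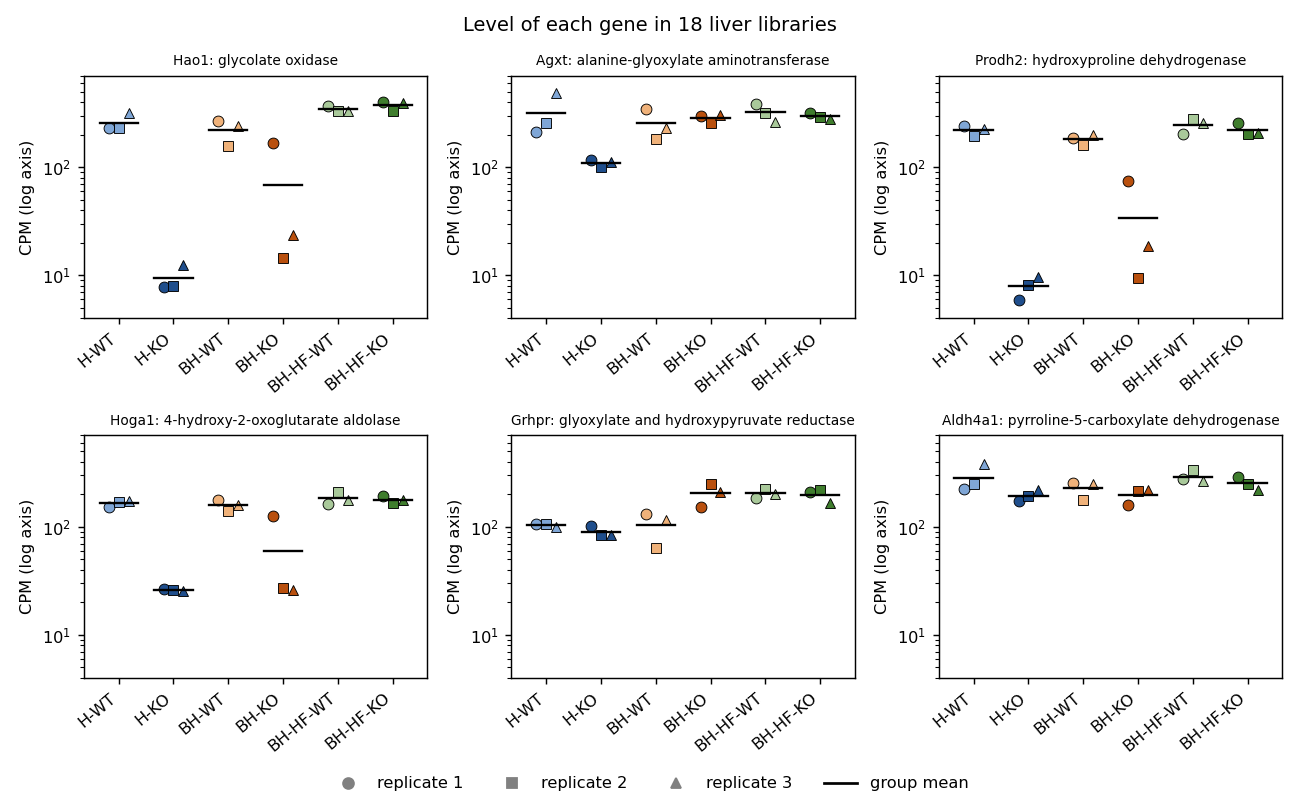
CPM (log axis) of each of the 6 genes in each library, by group; symbols stand for replicates and the line for the group mean. The 3 H-KO libraries are at 7.83 to 12.6 CPM for Hao1 and 5.92 to 9.65 CPM for Prodh2, and BH-KO replicate 1 (circle) stands above the other BH-KO libraries for Hao1, Prodh2 and Hoga1.

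H-KO was compared with H-WT to see how these genes differ in livers deleted for Hnf4a. Genes for both sources of glyoxylate fell: hydroxyproline breakdown through Prodh2 and Hoga1, and glycolate oxidation through Hao1. Agxt, which turns glyoxylate into glycine, fell less, and Grhpr, the reductase, did not pass. In all, 5 of the 6 genes fell and none rose, where 19.1% of all tested genes fell, 15.8% rose and 34.9% passed in either direction. The median log2 fold change of the 6 was -2.11, against 0.00 over all tested genes.

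Prodh2, the first enzyme of hydroxyproline breakdown, had 241, 194 and 225 CPM in H-WT replicates 1 to 3 and 5.92, 8.11 and 9.65 CPM in H-KO. Every H-KO library was far below every H-WT library, a 27.8-fold lower level (log2 fold change -4.80 ± 0.58, edgeR adjusted p = 6.32e-05). Hao1, the glycolate oxidase, had 229, 228 and 316 CPM in H-WT and 7.83, 7.89 and 12.6 CPM in H-KO. This was 27.3-fold lower (-4.77 ± 0.73, adjusted p = 0.000351 in edgeR), again with a wide gap between the groups. Hoga1, the aldolase that splits the last intermediate of hydroxyproline, had 154, 169 and 173 CPM in H-WT and 26.4, 26.2 and 25.2 CPM in H-KO. Its 3 H-KO libraries were nearly equal and 6.38-fold below WT (-2.67 ± 0.45, edgeR adjusted p = 0.000569).

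Agxt had 211, 255 and 482 CPM in H-WT and 116, 99.9 and 111 CPM in H-KO. The groups did not overlap, with Agxt 2.91-fold lower in H-KO (-1.54 ± 0.27, adjusted p = 0.00054 in edgeR), and 2.15-fold lower without H-WT replicate 3 (-1.11, adjusted p = 0.00206). Aldh4a1, which acts on the products of both proline and hydroxyproline, had 224, 251 and 381 CPM in H-WT and 172, 194 and 217 CPM in H-KO. It was lower in every H-KO library by a small margin (1.47-fold, -0.55 ± 0.20, edgeR adjusted p = 0.0467). Leaving out H-WT replicate 3 ended that call (-0.29, adjusted p = 0.279), as did leaving out H-KO replicate 1, 2 or 3 (0.154, 0.103 and 0.0573).

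Grhpr had 106, 107 and 99.6 CPM in H-WT and 101, 84.0 and 84.1 CPM in H-KO. The groups overlapped and the difference did not pass (-0.22 ± 0.22, 95% interval -0.69 to 0.26, edgeR adjusted p = 0.481). The other 5 genes each had all H-KO libraries below all H-WT libraries, where 51.9% of tested genes had groups that did not overlap in either direction. Summed hepatocyte markers were also lower in H-KO (28432 to 38179 CPM against 96361 to 102691), with 2 of 6 falling, where 19.1% of tested genes fell, and none rising. The other 4 markers did not pass, and the median log2 fold change of the 6 markers was -0.05. The sum weighs abundant RNAs most, and albumin was 1.35 to 1.68% of counts in H-KO against 6.78 to 7.74% in H-WT. Mitochondrial RNA was 4.46 to 5.18% of counts in H-KO against 7.42 to 8.54% in H-WT. Summed cholangiocyte markers were higher (136 to 201 against 49.8 to 74.2 CPM), with 4 of 6 tested rising, where 15.8% of tested genes rose. Of the 8 listed cholangiocyte markers, Sctr had no count in the H-KO libraries, which allows up to 0.292 to 0.324 CPM from counting error. None of the 8 was without counts in H-WT. The part of these in the falls was not tested.

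BH-KO was compared with BH-WT for the deletion of Hnf4a together with Arntl. Prodh2 and Hoga1 fell and Grhpr rose, while Agxt and Aldh4a1 did not pass and Hao1 missed the threshold. In all, 2 of the 6 fell and 1 rose, where 14.3% of tested genes fell, 14.3% rose and 28.6% passed in either direction. These 3 genes were also those whose groups did not overlap, as for 34.9% of tested genes.

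Prodh2 had 188, 161 and 199.6 CPM in BH-WT and 74.3, 9.41 and 18.5 CPM in BH-KO. All BH-KO libraries were below all BH-WT libraries, and replicate 1 was the least reduced (log2 fold change -2.44 ± 0.52, edgeR adjusted p = 0.00404). Hoga1 had 177, 141 and 159 CPM in BH-WT and 125, 27.4 and 25.7 CPM in BH-KO. Here replicate 1 lay just under the WT range and the other BH-KO libraries far under it (-1.44 ± 0.43, edgeR adjusted p = 0.0235). The Hoga1 call was lost without BH-WT replicate 1 or 3 (adjusted p = 0.0608 and 0.0512) and without BH-KO replicate 2 or 3 (0.0856 and 0.0771). Hao1 had 265, 158 and 239 CPM in BH-WT and 167, 14.5 and 23.5 CPM in BH-KO. BH-KO replicate 1 lay inside the WT range, above only BH-WT replicate 2, and the other BH-KO libraries lay below that range. BH-WT replicate 2 was the lowest BH-WT library for each of the 6 genes. Hao1 did not pass (-1.70 ± 0.64, 95% interval -3.09 to -0.31, edgeR adjusted p = 0.0607). In limma-voom it passed with a larger fall (-2.56, adjusted p = 0.00524).

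Grhpr moved the other way. It had 132, 63.7 and 115 CPM in BH-WT and 153, 249 and 208 CPM in BH-KO. All BH-KO libraries were above all BH-WT libraries, on average 1.97-fold higher (0.98 ± 0.22, edgeR adjusted p = 0.00473), and BH-KO replicate 1 was the least raised. Agxt had 348, 184 and 231 CPM in BH-WT and 295, 258 and 302 CPM in BH-KO. Its groups overlapped (0.16 ± 0.26, 95% interval -0.41 to 0.74, edgeR adjusted p = 0.666). Aldh4a1 had 254, 177 and 249 CPM in BH-WT and 158, 214 and 217 CPM in BH-KO, also with overlap (-0.21 ± 0.20, -0.65 to 0.24, edgeR adjusted p = 0.467).

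BH-KO replicate 1 differed from its group. Its Hao1 was 8.79 times the mean of the other BH-KO libraries, its Prodh2 5.32 times and its Hoga1 4.69 times. Its Agxt (1.05 times), Aldh4a1 (0.734 times) and Grhpr (0.668 times) were closer to them. Without it, 4 of the 6 genes passed, where 41% of tested genes did. Hao1 was then 11.6-fold lower (log2 fold change -3.53, edgeR adjusted p = 1.49e-07), Prodh2 13.1-fold (-3.71, 4.91e-08) and Hoga1 5.99-fold (-2.58, 8.53e-10), and Grhpr was 2.21-fold higher (1.14, 0.000623). When the model held only the BH-WT and BH-KO libraries, none of the 6 passed, where 8.67% of genes did (adjusted p = 0.0932 for Prodh2, 0.194 for Hoga1 and 0.0895 for Grhpr).

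The same library differed from BH-KO replicates 2 and 3 in other measures. Its summed hepatocyte markers were 80524 CPM against 50359 and 38912, with 98079 to 127901 in BH-WT. Its mitochondrial RNA was 9.45% of counts against 3.70 and 4.17%, its Hnf4a 867 against 500.2 and 495 CPM, and its summed cholangiocyte markers 134 against 314 and 378 CPM. Its Arntl, at 17.4 CPM, was near that of the others at 22.3 and 24.1. Between the groups, 1 of 6 hepatocyte markers rose in BH-KO and 1 fell (median log2 fold change 0.30), where 14.3% of tested genes did each. Of 6 tested cholangiocyte markers, 3 rose and none fell (median -0.06), where 14.3% of tested genes rose. Of 12 macrophage markers, 9 fell in BH-KO, where 14.3% of tested genes fell. Their sums were 67.6 to 375 CPM in BH-KO against 306 to 1494 in BH-WT, where replicate 2 was the highest. In the other groups they were 82.2 to 605 (H-WT), 179 to 278 (H-KO), 84.1 to 324 (BH-HF-WT) and 43.2 to 198 CPM (BH-HF-KO). In BH-WT against H-WT none of the 12 passed (median log2 fold change 1.52), where 0.165% of tested genes did. The part of these in the results for the 6 genes was not tested.

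**Figure D2:**
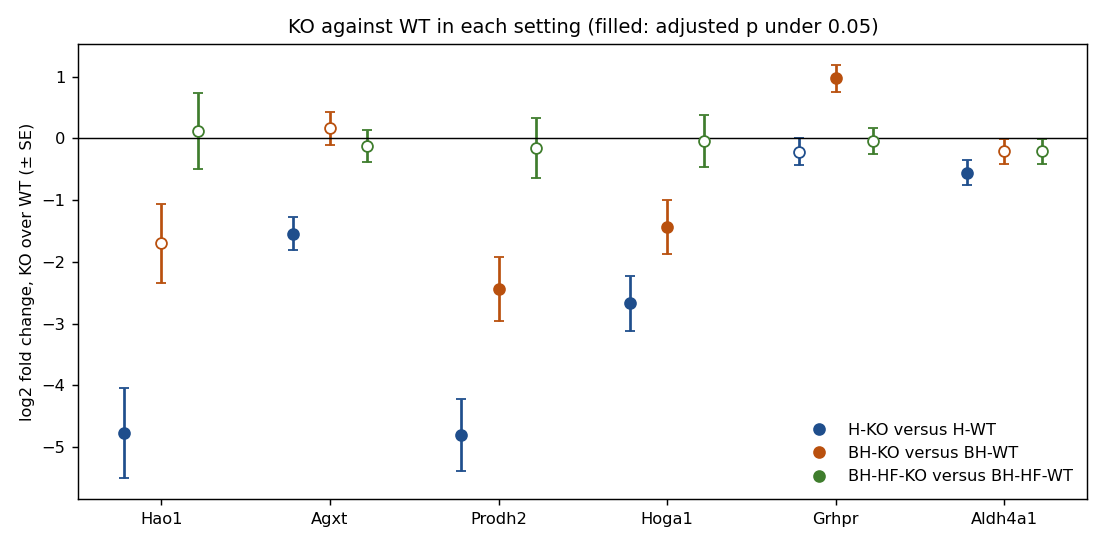
Log2 fold change of KO over WT, with its SE, for each gene in the H, BH and BH-HF settings; filled points had an adjusted p under 0.05 in edgeR. In H the fold changes of Hao1 and Prodh2 lie near -4.8, in BH Grhpr lies near 1, and in BH-HF all 6 lie between -0.21 and 0.12.

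In the aged groups on high-fat diet, none of the 6 genes passed between the libraries labelled BH-HF-KO and BH-HF-WT. Of all tested genes 0% passed in edgeR, and DESeq2 and limma-voom also gave 0 genes, while 490 genes (3.51%) had an unadjusted p under 0.05. Prodh2 had 202, 279.9 and 254 CPM in BH-HF-WT and 256, 201 and 207 CPM in BH-HF-KO (log2 fold change -0.15, 95% interval -1.20 to 0.91). Hoga1 had 161, 210.2 and 177 CPM against 191, 165 and 176 (-0.05, -0.96 to 0.87). Hao1 had 370.3, 330.1 and 328 CPM against 399, 327 and 390.4 (0.12, -1.22 to 1.46). Each of these genes had overlapping groups (edgeR adjusted p = 1).

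Agxt had 381, 320.5 and 263 CPM in BH-HF-WT and 315, 292 and 279.7 in BH-HF-KO (-0.12, 95% interval -0.69 to 0.45). Grhpr had 185, 223 and 201 CPM against 208, 218 and 166 (-0.04, -0.51 to 0.43), and Aldh4a1 had 274, 334 and 266 CPM against 288, 247 and 219 (-0.21, -0.66 to 0.23). Their adjusted p was 1 in edgeR, and groups overlapped for all 6 genes, where 10.4% of tested genes had groups that did not. The intervals of Hao1, Prodh2 and Hoga1 leave out falls of the size seen in H-KO. Summed hepatocyte markers, which include albumin, were lower in the libraries labelled BH-HF-KO (63328 to 75289 CPM) than in BH-HF-WT (106683 to 128705). None of the 6 markers passed, where 0% of tested genes did, and their median log2 fold change was -0.18.

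**Figure D3:**
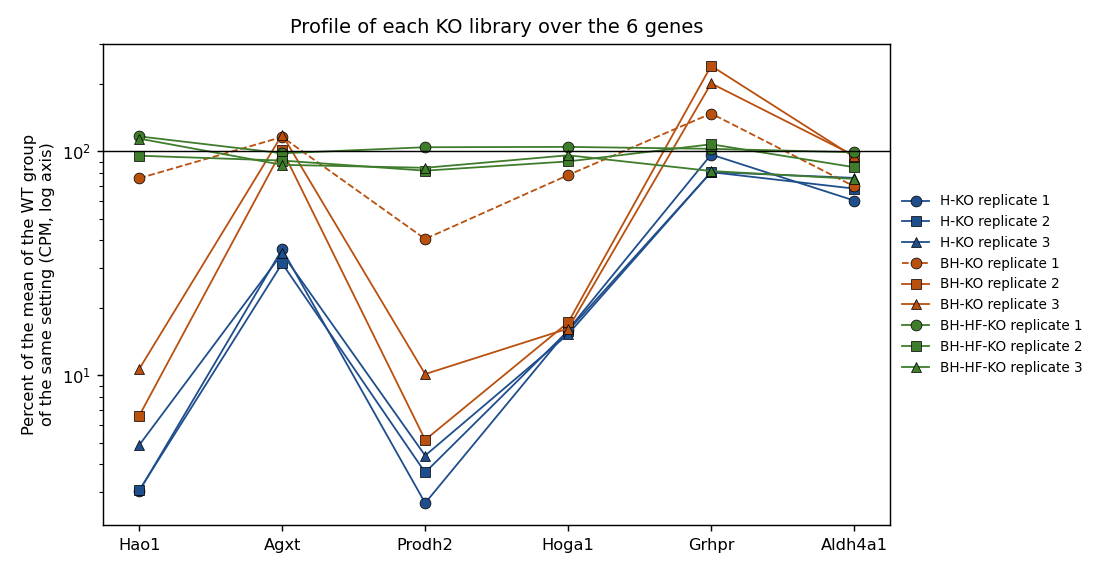
Level of each gene in each KO library as a percent of the mean of the WT group of its setting (log axis); colours stand for settings, symbols for replicates, and the dashed line is BH-KO replicate 1. BH-KO replicates 2 and 3 lie near the H-KO libraries for Hoga1 (17.2 and 16.2%, against 15.3 to 15.95%), above them for Hao1 (6.59 and 10.7%, against 3.04 to 4.88%) and Prodh2 (5.15 and 10.1%, against 2.69 to 4.38%), and far above them for Agxt (101 and 119%) and Grhpr (241 and 201%).

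The difference between the KO effects was tested as an interaction. For BH against H, 2 of the 6 genes passed, where 6.06% of tested genes did. Agxt had an effect of -1.54 in H and 0.16 in BH, a difference of 1.70 ± 0.37 on the log2 scale (edgeR adjusted p = 0.0162). Grhpr had -0.22 in H and 0.98 in BH, a difference of 1.19 ± 0.31 (edgeR adjusted p = 0.0341). Relative to WT both were higher in BH-KO than in H-KO, and the estimates of the other 4 genes, which did not pass, had the same sign. Agxt was lost without H-KO replicate 2 (adjusted p = 0.0505). Grhpr was lost without any 1 of the 6 H libraries and without BH-WT replicate 2 or BH-KO replicate 2 (adjusted p = 0.0513 to 0.0853), and with the H and BH groups fitted alone (0.0781).

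For the other 4 genes the BH-minus-H difference did not pass, although the estimates of Hao1 and Prodh2 were larger than those of Agxt and Grhpr. It was 3.07 ± 0.91 for Hao1 (edgeR adjusted p = 0.0633), 2.36 ± 0.72 for Prodh2 (0.0675), 1.24 ± 0.60 for Hoga1 (0.233) and 0.35 ± 0.29 for Aldh4a1 (0.498). These values depended on BH-KO replicate 1. Without it they were 1.24 for Hao1 (adjusted p = 0.0373), 1.10 for Prodh2 (0.0488) and 0.09 for Hoga1 (0.769), and 4 of the 6 genes passed, where 8.65% of tested genes did. Hao1 and Prodh2 also passed without BH-KO replicate 2 (0.0139 and 0.00892) or 3 (0.0284 and 0.041).

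For BH-HF against BH, none of the 6 passed, where 6.1% of tested genes did. The difference was 2.29 ± 0.70 for Prodh2 (edgeR adjusted p = 0.0691) and -1.02 ± 0.31 for Grhpr (0.0629). It was 1.82 ± 0.88 for Hao1 (0.237), 1.39 ± 0.60 for Hoga1 (0.181) and -0.28 ± 0.37 for Agxt (0.692), and it was -0.00 ± 0.29 for Aldh4a1 (1). Without BH-KO replicate 1, 4 of the 6 passed, where 21.1% of tested genes did: Hao1 at 3.65 (adjusted p = 1.90e-06), Prodh2 at 3.56 (1.28e-06), Hoga1 at 2.54 (2.51e-08) and Grhpr at -1.18 (0.00827). Grhpr also passed without BH-WT replicate 1 (-1.22, 0.0425).

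Between the groups labelled WT at 10 weeks, none of the 6 genes passed in BH-WT against H-WT, where 0.165% of tested genes did. Their log2 fold changes lay between -0.33 and -0.01, and the groups overlapped for all 6, where 14.7% of tested genes had groups that did not. BH-HF-WT against BH-WT, which differ in age and diet, had 1 of the 6 passing, where 7% of tested genes did. This was Grhpr, at 185 to 223 CPM in BH-HF-WT against 63.7 to 132 in BH-WT (0.97 ± 0.22, edgeR adjusted p = 0.0179). BH-WT replicate 2 was the lowest of all 18 libraries for Grhpr, and without it the call was lost (0.72, adjusted p = 0.0636), as it was without BH-HF-WT replicate 2 (0.90, 0.0738). Hao1, Prodh2 and Aldh4a1 were also above BH-WT without overlap, as 31% of tested genes were in either direction, but did not pass (0.63, 0.42 and 0.36, with adjusted p of 0.585, 0.652 and 0.3003).

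Between the KO groups at 10 weeks, 4 of the 6 genes were higher in BH-KO than in H-KO, where 10.1% of tested genes were and 16.4% passed in either direction. Grhpr was 2.27-fold higher (1.18 ± 0.22, edgeR adjusted p = 0.00233) and Agxt 2.62-fold (1.39 ± 0.27, 0.00285), both without overlap. Hao1 was 7.20-fold higher (2.85 ± 0.68, 0.0132), also without overlap, and Prodh2 4.26-fold (2.09 ± 0.53, 0.0174), with overlap. Of all tested genes, 36.2% had groups that did not overlap in either direction. Without BH-KO replicate 1, Hao1 was 2.02-fold (1.02, adjusted p = 0.0178) and Prodh2 1.78-fold higher (0.83, 0.0414), while Grhpr (1.36) and Agxt (1.37) stayed near their values. Hao1 and Prodh2 lost the call without H-KO replicate 1 (0.0549 and 0.0714) or 2 (0.0601 and 0.0617). Hoga1 did not pass (1.18 ± 0.43, 0.0776) and was at 0.04 without BH-KO replicate 1, and it passed without BH-KO replicate 2 or 3 (0.0203 and 0.0153). Aldh4a1 was at 0.01 ± 0.20 (0.972).

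Ordered by group mean, Hao1 ran from 372 CPM in BH-HF-KO through BH-HF-WT (343), H-WT (258), BH-WT (221) and BH-KO (68.5) to H-KO (9.43). Neighbours overlapped except BH-HF-WT with H-WT and BH-KO with H-KO. Prodh2 and Hoga1 shared an order, from BH-HF-WT (245 and 183 CPM) through BH-HF-KO, H-WT and BH-WT to BH-KO (34.1 and 59.2) and H-KO (7.89 and 25.9), and only BH-WT and BH-KO did not overlap. Agxt ran from 321 CPM in BH-HF-WT to 254 in BH-WT with overlap between all neighbours, and only H-KO (109) stood below. Grhpr was highest in BH-KO, BH-HF-WT and BH-HF-KO (204, 203 and 197 CPM) and lower in H-WT, BH-WT and H-KO (104, 104 and 89.6). Its neighbours overlapped except BH-HF-KO with H-WT. Aldh4a1 had overlap between all neighbours, from 291 CPM in BH-HF-WT to 194 in H-KO.

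Over the 18 libraries, log2 CPM of Prodh2, Hoga1 and Hao1 moved together. Pearson's r was 0.987 for Hao1 and Prodh2, 0.982 for Hao1 and Hoga1 and 0.983 for Prodh2 and Hoga1. Grhpr had an r of 0.162 to 0.27 with these genes, and Agxt one of 0.663 to 0.748. These are descriptions over libraries that share the 6 groups and the scaling, and the lowest values of Hao1, Prodh2 and Hoga1 are in H-KO and BH-KO libraries. Among 9429 genes the most similar pattern to Hao1 was that of Otc (0.996), Haao (0.995) and Aadat (0.993), and to Prodh2 that of Aspdh (0.994), Ido2 (0.991) and Rarres2 (0.991). For Hoga1 these were Cyp2d10 (0.996), Slco2b1 (0.995) and Slc27a5 (0.995), and for Agxt Hibadh (0.951), Sucla2 (0.9496) and Slc1a2 (0.942). For Grhpr they were Nucks1 (0.934), Echdc2 (0.903) and Apoa1 (0.902), and for Aldh4a1 Echs1 (0.949), Atp5a1 (0.914) and Fdxr (0.913).

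Genes of connected pathways were counted in 4 lists, beside the 6 genes. Of 10 tested genes of proline and hydroxyproline metabolism, 2 rose and 6 fell in H-KO, where 15.8% of tested genes rose and 19.1% fell. The median log2 fold change of the 10 was -0.87, against 0.00 over all tested genes. Without H-WT replicate 3, 1 rose and 4 fell, where 27.9% of tested genes passed in either direction. Prodh, the proline dehydrogenase related to Prodh2, fell from 201 ± 28.3 to 45.4 ± 11.1 CPM in H-KO (-2.15 ± 0.25, edgeR adjusted p = 2.79e-05). In BH-KO, 1 of the 10 rose and 3 fell (median -0.11, against 0.03 over all tested genes, of which 14.3% rose and 14.3% fell), again with a fall of Prodh, from 222 ± 1.97 to 84.7 ± 30.5 CPM (-1.39 ± 0.24, edgeR adjusted p = 0.000844). P4ha2, a subunit of the enzyme that hydroxylates proline in collagen, rose from 7.43 to 15.001 CPM in H-KO (1.01 ± 0.31, edgeR adjusted p = 0.0194) and from 6.00 to 13.1 CPM in BH-KO (1.15 ± 0.32, 0.0146). The first call was lost without H-WT replicate 1, H-WT replicate 3 or H-KO replicate 2 (adjusted p up to 0.0821), and the second without BH-WT replicate 2, BH-KO replicate 2 or BH-KO replicate 3 (up to 0.0784).

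Of 21 tested genes that handle glycine, serine and glycerate, 2 rose and 11 fell in H-KO (median -0.82), where 15.8% and 19.1% of tested genes did. Sardh, the sarcosine dehydrogenase, fell from 757 to 52.6 CPM (-3.85 ± 0.44, edgeR adjusted p = 3.02e-05), and Shmt2, a mitochondrial enzyme that interconverts serine and glycine, from 218 to 18.7 CPM (-3.54 ± 0.49, 0.000152). Psat1, an enzyme of serine synthesis, rose from 1.20 to 17.8 CPM (3.88 ± 0.64, 0.000398), and by 5.03 without H-WT replicate 1 (adjusted p = 0.000318), which had 2.53 CPM against 0.370 and 0.7004 in the others. In BH-KO 1 of the 21 rose and 8 fell (median -0.74), where 14.3% of tested genes did each. Without BH-KO replicate 1 these were 2 and 13, where 41% of tested genes passed in either direction. Gldc, of the glycine cleavage system, rose from 58.3 to 142 CPM (1.29 ± 0.25, edgeR adjusted p = 0.00168). BH-WT had the lowest Gldc mean of all groups, with 117 CPM in H-WT, 94.9 in H-KO, 128 in BH-HF-WT and 121 in BH-HF-KO. Glyctk, the kinase of the glycerate that Grhpr forms, fell from 97.2 to 27.9 CPM (-1.82 ± 0.40, 0.00515). BH-KO replicate 1 had 56.4 CPM against 12.4 and 14.98 in the others, and without it the change was -2.83 (adjusted p = 2.20e-09).

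Of 10 genes that handle glycolate, glyoxal and oxalate, none rose and 6 fell in H-KO (median -0.52; 15.8% and 19.1% of tested genes did). In BH-KO 1 rose and 3 fell (median 0.12), where 14.3% of tested genes did each. Without BH-KO replicate 1 these were 2 and 4, where 41% of tested genes passed in either direction. Slc26a1, an anion transporter that carries sulfate and oxalate, fell from 152 to 8.98 CPM in H-KO (-4.08 ± 0.64, edgeR adjusted p = 0.000398). In BH-KO it fell from 179 to 46.7 CPM (-1.95 ± 0.58, 0.0232), a call lost without BH-WT replicate 3 (adjusted p = 0.0563) or BH-KO replicate 3 (0.0847). BH-KO replicate 1 had 109.9 CPM against 10.7 and 19.5 in the others, and without it Slc26a1 was at -3.56 (adjusted p = 1.07e-08). Hao2, an oxidase related to Hao1, had 1.99, 3.09 and 34.0 CPM in H-WT and 0.502, 0.432 and 0.877 CPM in H-KO. It fell (-4.38 ± 1.09, edgeR adjusted p = 0.00629), but not without H-WT replicate 3 (-2.04, adjusted p = 0.0837). The other groups labelled WT were as low as H-KO, with 0.245 to 0.480 CPM in BH-WT and 0.128 to 1.12 CPM in BH-HF-WT. The Hao2 difference thus came with a high H-WT.

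Of 16 peroxisome biogenesis genes, 1 rose and 7 fell in H-KO (median -0.29; 15.8% and 19.1% of tested genes did). In BH-KO 1 rose and 4 fell (median -0.11), where 14.3% of tested genes did each. Without BH-KO replicate 1 these were 2 and 4, where 41% of tested genes passed in either direction. Pex5, the import receptor for peroxisomal enzymes, fell from 129 to 65.6 CPM in H-KO (-0.97 ± 0.10, edgeR adjusted p = 1.76e-05) and from 128 to 72.2 CPM in BH-KO (-0.83 ± 0.10, 6.88e-05). Pex11a, which takes part in peroxisome division, rose in H-KO from 109 to 303 CPM (1.48 ± 0.34, 0.00372). In the libraries labelled BH-HF-KO none of the tested genes of the 4 lists passed, where 0% of all 13958 tested genes did.

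**Figure D4:**
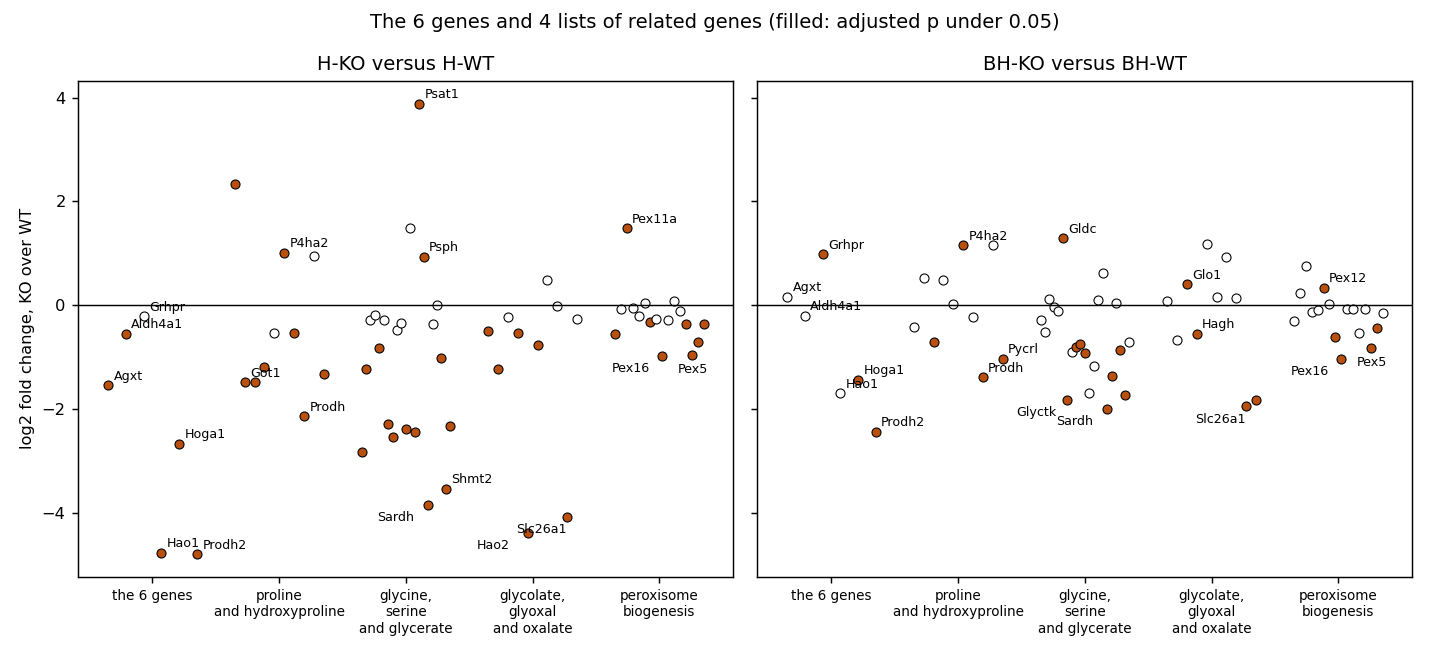
Log2 fold change of KO over WT for each of the 6 genes and each tested gene of the 4 lists, in H and in BH; filled points had an adjusted p under 0.05 in edgeR. In H-KO the falls of Hao1 and Prodh2 lie with those of Hao2, Slc26a1, Sardh and Shmt2 below -3.5, and Psat1 has the highest value. Without H-WT replicate 3 the value of Hao2 is -2.04 and does not pass.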

How the data were processed

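Raw read counts per gene, 1 column for each of the 18 libraries, were deposited by the authors as whole numbers with no normalization. Reads were aligned with STAR 2.6 to mm10, per the submitters' processing notes. The sources used here do not give the counter, its annotation or its use of strand, so the counts of overlapping genes are uncertain. Samples were grouped by their labels, and no library was left out. No 2 replicates had counts within sampling noise of each other. The labels call the replicates biological.

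Genes were kept by filterByExpr (minimum count 10), scaled by TMM and fitted in edgeR 4.0.16 (R 4.3.3) with 1 mean per group over 18 libraries, leaving 12 residual degrees of freedom. Contrasts were tested with the robust quasi-likelihood test, two-sided, for 8 comparisons. The SE is the absolute log2 fold change divided by the square root of the F statistic of this test. Intervals of 95% are from that SE and 12 degrees of freedom. The test itself moderates its degrees of freedom, so these intervals are approximate. CPM use the TMM-scaled library size, and CPM per kb divide this by the merged exon length in GENCODE M21. Levels are means ± SD of 3 libraries. A count of 0 allows up to 3 counts, and such limits cover counting error only. The test was tried on simulated counts with known changes in H-KO only. No simulated library stood apart as BH-KO replicate 1 does, so that trial does not bear on the BH results.

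The 6 genes and the lists were chosen with earlier results of these data known, and 1 gene of the proline list is not reported here. Named from each list are up to 2 rises and 2 falls, the largest among its called genes whose mean reached 5 CPM in a compared group. Not all of them are described. The genes with the most similar pattern are the 3 with the highest Pearson r of log2 CPM (prior count 2) among genes with a mean of at least 5 CPM. The replicate numbers did not pair the samples, with correlations of same-numbered deviations of -0.25 to 0.13. Alternatives were other scaling, filters and thresholds, DESeq2 1.42.0, limma-voom (limma 3.58.1), the compared groups alone, the replicate number as a block, each library left out, and H-WT replicate 3 left out together with BH-KO replicate 1. List counts without 1 of these libraries were added after seeing the data.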

Additional observations from a re-analysis of the deposited data

Results flagged for a closer look

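The KO effect of Agxt and of Grhpr differed between the H and BH settings at an adjusted p under 0.05, by a test of the difference itself. For Agxt the log2 fold change of KO over WT was -1.54 in H and 0.16 in BH, a difference of 1.70 ± 0.37 (edgeR's quasi-likelihood test, Benjamini-Hochberg adjusted p = 0.0162). All 3 H-KO libraries were below all H-WT libraries, while BH-KO and BH-WT overlapped. For Grhpr the fold changes were -0.22 in H and 0.98 in BH, a difference of 1.19 ± 0.31 (adjusted p = 0.0341 in edgeR). Here all 3 BH-KO libraries were above all BH-WT libraries, while H-KO and H-WT overlapped. Neither gene passed at a threshold of 0.01. Counting that threshold, the call was lost in 2 of 22 alternatives for Agxt and in 11 of 22 for Grhpr. The Agxt difference was 1.27 without H-WT replicate 3 (edgeR adjusted p = 0.0302), and the Grhpr difference was then 1.22 (0.0584). The H and BH lines differ in the Arntl allele of their strain label and in whatever else separates the lines, which cannot be told apart.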

How the results depend on the processing

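Of 820 values of single genes under alternatives, 719 kept their direction and their side of the threshold, 47 lost the threshold, 27 gained it and 27 changed sign. No value that changed sign passed (lowest adjusted p 0.819). Counts of the 6 genes that passed are given here with the share of all tested genes that passed in brackets. Leaving out 1 library at a time gave 4 to 5 in H (26.4 to 29.8%) and 2 to 4 in BH (16.3 to 41%). It gave 0 to 4 for BH minus H (2.4 to 8.65%) and 0 to 4 for BH-HF minus BH (2.47 to 21.1%). It gave 2 to 5 for BH-KO over H-KO (8.31 to 16.3%) and 0 to 1 for BH-HF-WT over BH-WT (1.57 to 7.03%). Fitting the compared groups alone gave 0 in BH (8.67%) and 1 for BH minus H (3.62%). It gave 2 for BH-KO over H-KO (7.01%) and 0 for BH-HF-WT over BH-WT (6.88%). A threshold of 0.01 gave 0 (1.16%), 2 (6.52%) and 0 (1.15%) for the last 3 of these. For BH-HF minus BH, the count was 1 with upper-quartile factors (7.01%), 2 with DESeq2 (9.42%) and 1 with limma-voom (6.83%). It was 4 without the pair of libraries that stood apart (23.1%). For BH-KO over H-KO, limma-voom gave 2 (16.9%). DESeq2 gave no adjusted p for Hao1 in any of the 8 comparisons, so Hao1 is missing from its counts.

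With the replicate block, 4 genes passed in H, where 33.3% of tested genes did (Aldh4a1 at -0.54, adjusted p = 0.0595, was lost). In BH 4 passed, where 26.3% of tested genes did (Hao1 at -1.95, adjusted p = 0.0384, was gained). Limma-voom also gave 4 in BH, where 30.3% did. With the block, 1 gene passed for BH minus H, where 4.65% did (Grhpr at 1.20, adjusted p = 0.0542, was lost). The block changed no other call. The numbers share no stated source, and in no comparison did every library correlate best with its own number.

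The other values that changed sign were small. Aldh4a1 for BH-HF minus BH was 0.000649 with DESeq2 size factors, 0.0214 with limma-voom, 0.00772 with the replicate block and -0.135 to 0.151 without 1 library. Aldh4a1 for BH-KO over H-KO was -0.0559 with upper-quartile factors, -0.000694 with no filter, -0.00962 with limma-voom and -0.0658 to 0.151 without 1 library. Without 1 library, BH-WT over H-WT was -0.609 to 0.125 for Agxt (0.125 also without the pair), -0.142 to 0.0251 for Hoga1 and -0.219 to 0.249 for Grhpr, and BH-KO over BH-WT was -0.029 to 0.455 for Agxt. BH-HF-KO over BH-HF-WT was -0.244 to 0.0206 for Agxt, -0.127 to 0.0673 for Hoga1 and -0.118 to 0.0721 for Grhpr. Upper-quartile factors moved the median of all genes in H by 0.15 and the share of higher calls there from 45.4 to 61.8%. That share went from 61.6 to 48.8% for BH-KO over H-KO, from 62.1 to 51.9% for BH minus H and from 56.5 to 43.9% for BH-HF minus BH. Aldh4a1 in H then did not pass (-0.40, adjusted p = 0.149). Depth limits none of the 6 genes, which had at least 59 counts in each library, and 3 libraries per group limit the precision.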
